A study of Mus musculus with 9 samples.

Results

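The 9 genes that encode bromodomain readers of acetylated histones were followed in mouse round spermatids (RS), the haploid germ cells that precede the exchange of histones for protamines. The members were chosen by name, as the rows of the processed table whose gene name is Brd2, Brd3, Brdt, Brd7, Brd8, Brd9, Brwd1, Phip or Brpf1. All 9 were found among the 55414 genes listed, and all 9 passed the filter on low counts (a sum of 10 or more over the libraries) that left 25128 genes to test. RNA was sequenced after poly-A selection from 3 libraries in each of 3 groups. For 24 h the cells received vehicle (DMSO at 0.15%), 24 mM oxamate, which inhibits lactate dehydrogenase, or 24 mM oxamate together with 0.3 mM octyl-L2HG, an ester of L-2-hydroxyglutarate (L-2HG) that crosses membranes. All 3 groups contained DMSO at 0.15%. The culture medium in the study's methods contained sodium lactate and sodium pyruvate, but it is given there for earlier germ cells, and none is named for RS. The labels give the genotype as WT, and the study's methods describe adult mice on a C57Bl/6 background in which an iCre driven by the Stra8 promoter switches on tdTomato, with RS sorted by that fluorescence and by light scatter. No group received octyl-L2HG alone. The study reports incubations in triplicates, but nothing says that the libraries came from separate animals. The p-values therefore measure the spread between these libraries, which may be technical.

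A bromodomain is a small protein pocket that holds an acetylated lysine, and proteins that carry it bring their partners to chromatin whose histone tails are acetylated. In spermatids the histones are hyperacetylated shortly before most of them are removed. Brdt, the testis-specific protein of the BET family (bromodomain and extra-terminal), binds such histones and is needed for their removal, and Brd2 and Brd3 are its widely expressed relatives. Brd7 and Brd9 belong to different forms of the SWI/SNF chromatin remodeller, PBAF and the non-canonical BAF complex. Brwd1 and Phip are large relatives with WD repeats beside their bromodomains, and Phip is a substrate receptor of the CUL4 ubiquitin ligase. Brd8 is a subunit of the NuA4/TIP60 acetyltransferase complex, and Brpf1 is the scaffold of the MOZ/MORF acetyltransferases.

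The sequences before the transcription start are shown for Brdt, the member with the highest level per kb of all exons, and for Phip, the member with the largest difference between groups. They were taken from RefSeq on GRCm38.p6, an earlier build than the one the labels name for the reads, and 8 of the 9 members, all but Brd8, matched with 11 starts. Each window held the 250 bases before a start and was searched on both strands for 5 motifs, which were the letters CCAAT of the box of that name, the TATA box spelled TATAAA, the GC box spelled GGGCGG, the cyclic AMP response element spelled TGACGTCA and the E-box spelled CACGTG. Shown are the bases that lie outside annotated exons, read 5′ to 3′ on the strand of the gene, with matches in capitals. The Brdt stretch is chr5:107330944-107331115 on the plus strand, 172 bases long, and stops 78 bases before the start.
Brdt: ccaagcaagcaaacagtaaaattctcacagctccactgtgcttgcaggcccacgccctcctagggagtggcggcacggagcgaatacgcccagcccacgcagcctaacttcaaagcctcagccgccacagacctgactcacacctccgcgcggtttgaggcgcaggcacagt
The Phip stretch is chr9:82975517-82975739 on the minus strand, 223 bases long, and stops 27 bases before the start.
Phip: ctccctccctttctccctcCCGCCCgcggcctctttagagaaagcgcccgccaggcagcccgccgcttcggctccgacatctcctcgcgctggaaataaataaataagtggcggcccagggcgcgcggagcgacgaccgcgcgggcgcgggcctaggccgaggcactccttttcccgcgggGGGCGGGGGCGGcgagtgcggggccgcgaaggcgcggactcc
The Phip stretch holds 3 matches to the GC box, and the last 2 of them lie next to each other. In the whole windows the GC box was found for 7 members, at 8 of the 11 starts, and Brdt was the member without one. The Brdt window held 1 CCAAT and 1 E-box, both in the bases nearest the start that are not shown, and no other member held either. Over all 32851 promoters in the table, 32.7% held the GC box, 33.8% CCAAT, 6.02% the E-box, 12.4% the TATA box and 1.55% the cyclic AMP response element, and no member window held the last 2. The number of CpG dinucleotides in the member windows ran from 12 to 42, against a median of 6 over all promoters, with 37 for Phip and 16 for Brdt. These matches describe the letters of the windows and were not compared with the RNA levels.

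The libraries held between 32339533 and 39888396 counted reads. Principal components over the 10715 genes that average 100 or more normalized counts placed the oxamate library 4 apart from the oxamate libraries 5 and 6, and values without it are given beside several results. Defining markers of RS such as Acrv1, Spaca1 and Zpbp were present in every library, and the summed level of 10 RS markers lay between 2979 and 3098 CPM, which are counts scaled to a common library size. The sum hides opposite moves of single RS markers. With oxamate 0 of the 10 were called, and with both compounds against oxamate 0 were higher and 2 lower. Against vehicle, 2 of the 10 were higher and 3 lower with both compounds. The summed level of 10 markers of elongating spermatids moved with the groups, from 4163 to 4191 CPM in vehicle, to 3881 to 4009 CPM with oxamate and 3402 to 3529 CPM with both compounds. With oxamate 4 of these 10 were called lower, 6 were not called and 3 lay above 0. With both compounds 7 were called lower against oxamate and 9 against vehicle, and 0 lay above 0 in either comparison. The 8 markers of spermatogonia summed to between 16.8 and 18.5 CPM in vehicle and between 20.4 and 21.0 CPM with oxamate, and to between 18.8 and 20.5 CPM with both compounds. With oxamate 4 of these 8 lay above 0 and 0 were called, and the most abundant, Dazl, stood at 0.29 on the log2 scale (edgeR, adjusted p = 0.0551). The 10 markers of spermatocytes summed to between 1281 and 1413 CPM in vehicle, between 1255 and 1329 CPM with oxamate and between 1362 and 1378 CPM with both compounds, so that the treated groups did not overlap. Markers of Sertoli cells, Leydig cells, myoid cells and macrophages each summed to less than 5 CPM in every library, with 5 of 8, 3 of 5, 4 of 4 and 4 of 5 of them among the genes tested. In these bulk samples fewer cells of a type and less RNA per cell cannot be told apart, and the part of the markers of elongating spermatids, spermatocytes and spermatogonia in the results below was not tested.

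Per kilobase of exon, the BET genes were the most abundant of the 9 members in RS. In vehicle, Brdt reached 76.8 ± 6.68 CPM per kb (SD, n = 3), a level above that of 96.2% of the genes tested. Brd2 followed at 66.7 ± 2.16 CPM per kb and Brd3 at 32.6 ± 0.99 CPM per kb, and the libraries of these 3 genes did not overlap. The order of Brdt and Brd2 depended on the length used, since with the longest transcript in place of all exons Brd2 came first at 112 CPM per kb and Brdt second at 82.8 CPM per kb. Brpf1 came next at 8.14 ± 0.52 CPM per kb. Brd9 at 6.14 ± 0.057 and Brd7 at 5.81 ± 0.42 CPM per kb overlapped between libraries, as did Brd8 at 2.87 ± 0.16 and Brwd1 at 2.63 ± 0.30 CPM per kb. Phip was the lowest by a wide margin at 0.092 ± 0.013 CPM per kb, above 25% of the genes tested in vehicle and above 14.9% with oxamate. Under oxamate the libraries of Brdt and Brd2 overlapped, at means of 73.2 and 72.3 CPM per kb, and the other members kept their ranks except that Brwd1 and Brd8, which overlapped, changed places.

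**Figure D1:**
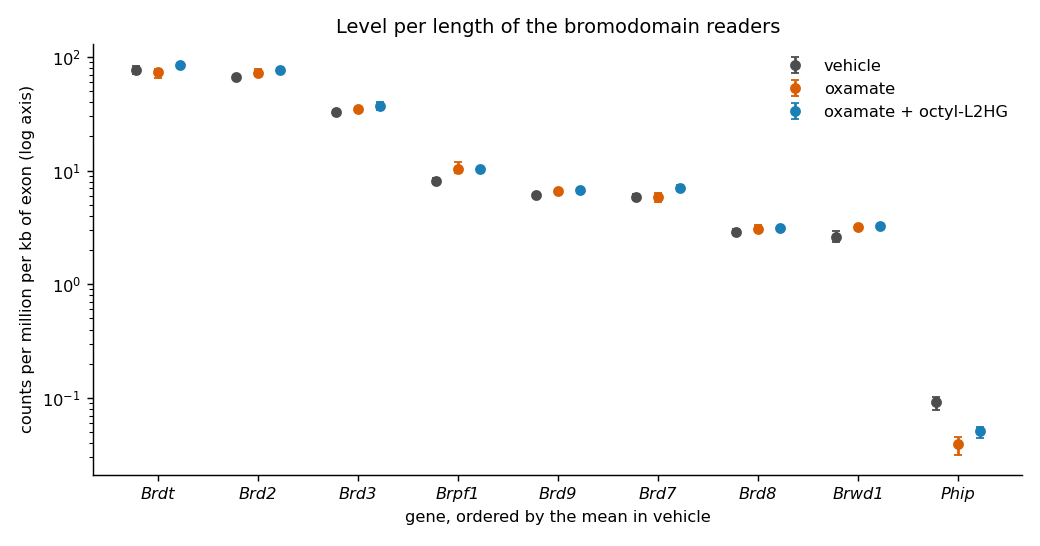
Level per length of the 9 members in the 3 groups, in CPM per kb of exon on a log axis; points are means over 3 libraries and bars run from the lowest to the highest library. Brdt, Brd2 and Brd3 lie above 30 CPM per kb in every group, and Phip lies below all others, at 0.092 in vehicle, 0.039 with oxamate and 0.051 with both compounds.

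Of the level per kb summed over Brd2, Brd3 and Brdt, the share that came from Brdt was between 41.1% and 46.4% in vehicle, between 36.2% and 42.9% with oxamate and between 42.0% and 43.2% with both compounds. The lowest of these values, 36.2%, came from the oxamate library 4, and the other oxamate libraries stood at 42.7% and 42.9%. These shares overlapped between the groups for Brdt.

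Oxamate against vehicle shows which readers differed after 24 h with the inhibitor. Phip was lower with oxamate, while Brpf1 and Brwd1 were higher, and the BET genes, Brd7, Brd9 and Brd8 did not pass the test. The comparison was made in 1 edgeR quasi-likelihood fit of every tested gene, and a gene was called at an adjusted p (Benjamini-Hochberg) under 0.05. Of the 9 members 3 were called, against a background of 5.19% of the 25128 genes tested, and 2 of the 3 were higher, against 3.97% of all genes called higher and 1.22% called lower. This background is not matched to the members, all of which but Phip averaged above 100 normalized counts. Among genes at that level, 14.4% were called higher and 1.05% lower where transcripts were longest (median 6.21 kb). Where transcripts were shortest (median 1.09 kb), the shares were 2.13% and 2.95%. The median log2 fold change of the members was 0.10, against −0.011 over all genes tested and 0.0098 over those that averaged 100 or more normalized counts, and 7 of the 9 lay above 0, as did 52.4% of those well expressed genes. With length and GC content corrected the members' median was −0.017 and 4 of the 9 lay above 0, so that the direction of the median depended on this correction. For 4 members, Phip, Brpf1, Brd3 and Brd9, the libraries of the groups did not overlap, against 21.3% of the genes tested.

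Phip had 93.3, 120 and 118 normalized counts in the vehicle libraries, 37.2, 48.1 and 54.8 in the oxamate libraries and 66.3, 54.2 and 66.5 in the libraries with both compounds. Every vehicle library stood above every library of the other groups, and the oxamate libraries overlapped those with both compounds by a single value. Normalized counts are the raw counts divided by a size factor of each library, and the raw counts of Phip were between 105 and 129 in vehicle and between 39 and 50 with oxamate. The log2 fold change was −1.24 (SE 0.17, 95% interval −1.59 to −0.90), so that the level decreased by 57.8% (edgeR, adjusted p = 7.88e-05). Of the 306 genes called lower, 28 fell at least as far as Phip and 3 had a p as small or smaller, Phip being counted in both. Of the genes that averaged between 50 and 200 normalized counts, the range that holds Phip with its mean of 73.2, 2.51% were called lower. The fall was called under all 16 alternative settings, each library left out in turn included, with log2 fold changes from −1.36 to −1.11.

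Brpf1, the scaffold of the MOZ/MORF acetyltransferases, had 2116, 1854 and 1982 normalized counts in vehicle, 2853, 2346 and 2334 with oxamate and 2596, 2582 and 2528 with both compounds. The lowest treated library stood above the highest vehicle library in both treated groups. With oxamate the log2 fold change was 0.35 (SE 0.080, 95% interval 0.18 to 0.51), an increase by 27.1% (edgeR, adjusted p = 0.0118). Without the oxamate library 4, which holds the highest value, it was 0.24 (adjusted p = 0.0129). The call was lost without the vehicle library 2 (adjusted p = 0.0911) or 3 (adjusted p = 0.0648), and in a fit of only the 2 groups compared (0.34, adjusted p = 0.0652). An antisense gene, Gm15492, shares 255 exon bases with Brpf1 and had between 679 and 777 normalized counts in vehicle and between 586 and 713 with oxamate, at a log2 fold change of −0.19 (SE 0.094, edgeR, adjusted p = 0.302). The strand setting of the counting is not given in the sources used here, so reads in the shared bases cannot be assigned to one of the genes.

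Brwd1, which is needed for the maturation of sperm in mice, had 1719, 1859 and 2171 normalized counts in vehicle, 2165, 2428 and 2406 with oxamate and 2399, 2412 and 2397 with both compounds. The lowest oxamate library stood just below the highest vehicle library, so these groups overlapped, whereas the libraries with both compounds stood above all of vehicle and differed from each other by less than 1%. The log2 fold change with oxamate was 0.29 (SE 0.078, 95% interval 0.13 to 0.45), an increase by 22.1% (edgeR, adjusted p = 0.0329). This call held under 7 of the 16 alternatives and was lost when any 1 of 7 libraries was left out, the vehicle libraries 1 and 2, the oxamate libraries 5 and 6 and all 3 libraries with both compounds, with adjusted p between 0.0579 and 0.161. It was also lost with scaling to total counts (adjusted p = 0.0523) and in a fit of only the 2 groups compared (adjusted p = 0.117).

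**Figure D2:**
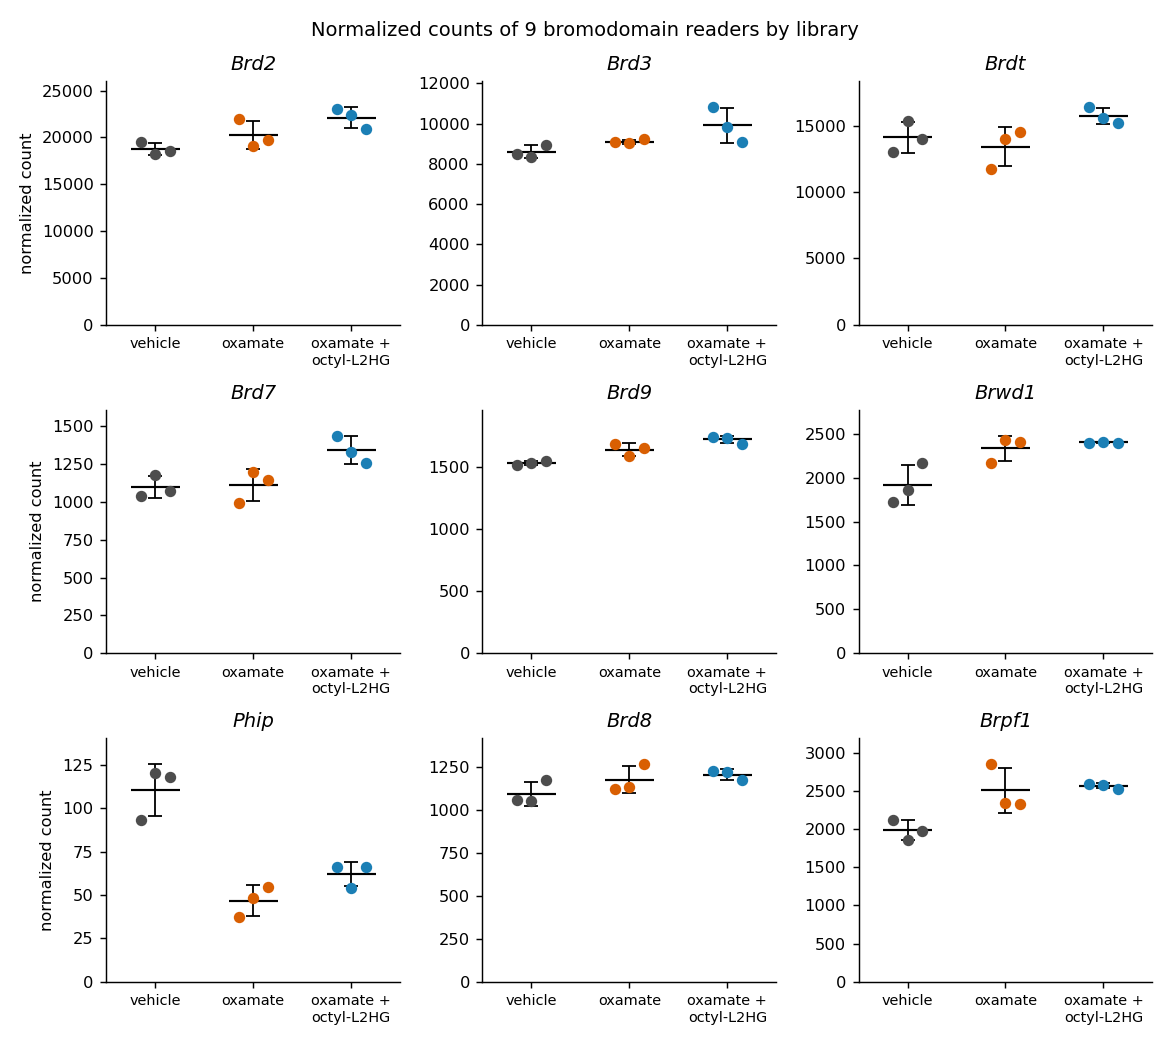
Normalized counts of each member in the 9 libraries, with an axis from 0 for each gene; dots are libraries in the order of their numbers, horizontal bars are group means and error bars are SD over 3 libraries. Phip has all vehicle dots above 90 and all treated dots below 67, and for Brpf1 all vehicle dots lie below all treated dots.

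Longer genes tended to be higher with oxamate in these libraries, and the lengths of the 9 members are given beside this trend. Whether length is a cause of the members' values was not tested. Across 10696 genes of known length that averaged 100 or more normalized counts, Spearman's rho between the length of the longest transcript and the log2 fold change was 0.34, as a description across genes of the same libraries. In the 25% of them with the longest transcripts 14.4% were called higher and 1.05% lower. The longest transcript of each member exceeds those of at least 61.1% of these genes, the share for Brd7, and those of Brwd1 (9.84 kb) and Phip (10.8 kb) exceed 97.1% and 97.8%. With length and GC content corrected in the fit, the log2 fold change was 0.20 for Brwd1 (edgeR, adjusted p = 0.03), 0.21 for Brpf1 (adjusted p = 0.0145), down from 0.35, and −1.32 for Phip (adjusted p = 2.34e-06).

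The 3 BET genes were not called with oxamate. Brdt had 13015, 15338 and 13999 normalized counts in vehicle and 11766, 13989 and 14498 with oxamate, and the groups overlapped. Its log2 fold change was −0.070 (SE 0.076, edgeR, adjusted p = 0.709), with a 95% interval from −0.23 to 0.088. Without the oxamate library 4, the lowest of the 9, it was 0.011 (adjusted p = 0.948). Brd2 had 19465, 18261 and 18595 normalized counts in vehicle and 21997, 19063 and 19716 with oxamate, and gave a log2 fold change of 0.11 (95% interval −0.024 to 0.25, edgeR, adjusted p = 0.403). Without the oxamate library 4, which holds its highest oxamate value, this was 0.045 (adjusted p = 0.717). Brd3 had 8485, 8343 and 8957 normalized counts in vehicle and 9073, 9023 and 9223 with oxamate, at 0.088 (95% interval −0.049 to 0.22, edgeR, adjusted p = 0.552). The oxamate libraries of Brd3 all stood above vehicle by a small margin, as did those of 11.4% of all genes tested.

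The SWI/SNF readers and Brd8 were not called either. Brd7 had 1036, 1176 and 1071 normalized counts in vehicle and 989, 1194 and 1146 with oxamate, at a log2 fold change of 0.023 (95% interval −0.15 to 0.20, edgeR, adjusted p = 0.935). For Brd9 the values were 1516, 1532 and 1550 in vehicle and 1682, 1586 and 1655 with oxamate, which did not overlap, at a log2 fold change of 0.10 (95% interval −0.035 to 0.24, adjusted p = 0.465). Brd8 had 1058, 1054 and 1177 normalized counts in vehicle and 1127, 1139 and 1269 with oxamate, at 0.11 (95% interval −0.046 to 0.26, adjusted p = 0.504). The value for Brd8 was 0.057 (adjusted p = 0.815) without the oxamate library 6. With length and GC content corrected, the 6 uncalled members ran from −0.13 for Brdt to 0.044 for Brd8. The intervals of these 6 uncalled members leave out a change as large as that of Phip, with upper ends between 0.088 and 0.26. All of them but that of Brdt overlap the intervals of Brpf1 and Brwd1.

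**Figure D3:**
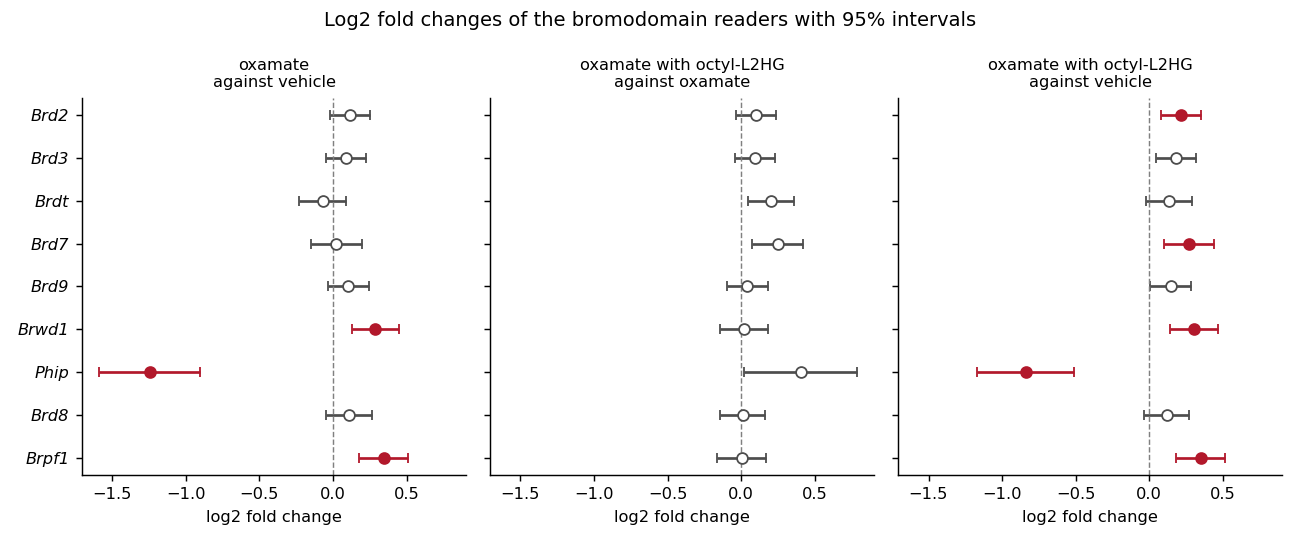
Log2 fold changes of the 9 members in the 3 comparisons, with 95% intervals from the edgeR fit; filled red points have an adjusted p under 0.05. Phip lies at −1.24 with oxamate and −0.84 with both compounds against vehicle, and no point is filled in the comparison of both compounds with oxamate.

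Oxamate with octyl-L2HG against oxamate asks whether the levels differed when the ester was added to the inhibitor. None of the 9 members was called by edgeR, against 11.2% of the genes tested, of which 3.18% of all genes were higher and 8.06% lower. Among well expressed genes with the longest transcripts (median 6.21 kb), 10.6% were higher and 11.7% lower. At an unadjusted p under 0.05 there were 3 members, Brdt, Brd7 and Phip, against 23.6% of all genes tested, and DESeq2 called 2, Brdt and Brd7, against 17% of the 16846 genes to which it gave an adjusted p. The libraries with both compounds stood above all oxamate libraries for 3 members, Brdt, Brd7 and Brd9, as they did for 13.4% of the genes tested. All 9 log2 fold changes lay above 0, with a median of 0.096 against −0.038 over all genes tested. Among the genes that averaged 100 or more normalized counts, the median was 0.0099 and 52.2% lay above 0. The members' median was 0.050 with scaling to total counts, 0.058 without the oxamate library 5 and 0.037 without library 7 of both compounds. With scaling to total counts, Brd9, Brwd1, Brd8 and Brpf1 turned below 0, so the direction of these small values depends on the scaling.

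Brd7 had 1436, 1331 and 1257 normalized counts with both compounds, all above the oxamate libraries at 989 to 1194. Its log2 fold change was 0.25 (SE 0.083, 95% interval 0.076 to 0.42, edgeR, adjusted p = 0.0572), and DESeq2 gave 0.27 (adjusted p = 0.0227). Without the oxamate library 4, its lowest library, the edgeR value was 0.17 (adjusted p = 0.0982), and without the vehicle library 1 Brd7 was called (adjusted p = 0.0486). It was called under 6 of the 16 alternatives. Brdt stood at 16402, 15614 and 15200 normalized counts with both compounds, above the oxamate libraries and overlapping vehicle by 1 library. Its log2 fold change against oxamate was 0.20 (SE 0.076, 95% interval 0.047 to 0.36, edgeR, adjusted p = 0.0892), and DESeq2 gave 0.23 (adjusted p = 0.0456). In edgeR Brdt was also called without a filter on low counts (0.25, adjusted p = 0.00783) and with length and GC content corrected (0.20, adjusted p = 0.0155), which makes 3 of the 16 alternatives. Without the oxamate library 4 its value was 0.12 (adjusted p = 0.177). Phip had a mean of 46.7 normalized counts with oxamate and 62.3 with both compounds and did not pass the test, at a log2 fold change of 0.40 (SE 0.18, 95% interval 0.021 to 0.79, edgeR, adjusted p = 0.182), which was 0.27 (adjusted p = 0.393) without the oxamate library 4. The summed spermatocyte markers were also higher with both compounds than with oxamate, although 4 of the 10 lay above 0 and 1 was called, Sycp2 at 0.37 (adjusted p = 0.00774). The most abundant of the 10, Tbpl1, had means of 22115 normalized counts with oxamate and 25186 with both compounds, at 0.16 (adjusted p = 0.0855). The sum therefore rests largely on this gene, and the list did not move together. The part of these markers in the values of the members was not tested.

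The other members had larger adjusted p between these groups. Brd2 had 23060, 22415 and 20903 normalized counts with both compounds, at a log2 fold change of 0.10 against oxamate (95% interval −0.038 to 0.24, edgeR, adjusted p = 0.4). Without the oxamate library 4 its value was 0.17 and Brd2 was called (adjusted p = 0.0328). Brd3 had 10820, 9841 and 9076 normalized counts and overlapped with oxamate, at 0.096 (95% interval −0.041 to 0.23, adjusted p = 0.425), which was 0.032 without library 7 of both compounds and 0.15 without library 9. Brd9 at 1745, 1735 and 1687 normalized counts stood above its oxamate libraries by a small margin, at 0.043 (95% interval −0.095 to 0.18, adjusted p = 0.766). The 3 remaining members gave 0.017 for Brwd1 (95% interval −0.15 to 0.18), 0.011 for Brd8 (95% interval −0.14 to 0.17) and 0.0056 for Brpf1 (95% interval −0.16 to 0.17). Single libraries moved these small values, and Brpf1 stood at 0.11 (adjusted p = 0.249) without the oxamate library 4 and at −0.049 without library 6.

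Oxamate with octyl-L2HG against vehicle gives the net difference after both compounds, and it shares its libraries with the other 2 comparisons, so the 3 sets of values are not independent. Of the 9 members 5 were called, against 18% of the genes tested, with 7.48% of all genes higher and 10.6% lower. Among well expressed genes with the longest transcripts (median 6.21 kb), 28.2% were higher and 8.60% lower. Phip was again lower, at a log2 fold change of −0.84 (SE 0.16, 95% interval −1.17 to −0.51, edgeR, adjusted p = 0.000615), and the level decreased by 44.2%. It stood out less here, since 994 of the 2655 genes called lower fell at least as far and 742 had a p as small or smaller, Phip being counted in both. Brpf1 was higher at 0.35 (SE 0.080, adjusted p = 0.00346), Brwd1 at 0.31 (SE 0.078, adjusted p = 0.00842), Brd7 at 0.27 (SE 0.083, adjusted p = 0.0246) and Brd2 at 0.22 (SE 0.066, adjusted p = 0.0269). Phip and Brpf1 were called under all 16 alternatives, Brwd1 under 15, Brd7 under 11 and Brd2 under 10. Scaling to total counts ended the calls of Brd2 (0.15, adjusted p = 0.0976) and Brd7 (0.21, adjusted p = 0.0975), and with length and GC content corrected Brd2 stood at 0.086 (adjusted p = 0.197).

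Single libraries decided some of these calls. Brd7 was not called without the vehicle library 1 or 3 or without library 7 or 8 of both compounds, with adjusted p between 0.0738 and 0.142. Brd2 was not called without the vehicle library 2 or 3 or without library 7 or 8, with adjusted p between 0.0913 and 0.126. Brwd1 was lost without the vehicle library 1 (0.23, adjusted p = 0.0545).

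The 4 members that were not called lay above 0. Brd3 gave 0.18 (95% interval 0.046 to 0.32, edgeR, adjusted p = 0.0581) and was called by DESeq2 (0.21, adjusted p = 0.0267). In edgeR it was called without the oxamate library 4 (0.18, adjusted p = 0.0108) or without library 9 of both compounds (0.24, adjusted p = 0.033), and was 0.12 (adjusted p = 0.311) without library 7, with calls under 7 of the 16 alternatives in all. Brdt gave 0.13 (95% interval −0.023 to 0.29, adjusted p = 0.249), Brd9 0.15 (95% interval 0.0086 to 0.28, adjusted p = 0.14) and Brd8 0.12 (95% interval −0.035 to 0.27, adjusted p = 0.306). The libraries of the groups did not overlap for 7 of the 9 members, all but Brdt and Brd8, and the same was true of 36.5% of all genes tested. Median log2 fold changes were 0.18 for the members, −0.045 for all genes tested and 0.032 for those that averaged 100 or more normalized counts. The members' median was 0.12 with scaling to total counts and 0.086 with length and GC content corrected. In a test for any difference among the 3 groups, 4 members were called, Phip (edgeR, adjusted p = 2.96e-05), Brpf1 (adjusted p = 0.00363), Brwd1 (adjusted p = 0.0106) and Brd7 (adjusted p = 0.0325), against 19.8% of the genes tested.

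The length of genes moved with this comparison too, with a Spearman's rho of 0.35 across the same 10696 genes and 28.2% called higher and 8.60% lower in the longest 25%. Against oxamate alone the rho was 0.15. Brd2 overlaps the antisense neighbour H2-DMa by 360 exon bases, and H2-DMa had a log2 fold change of −0.065 with both compounds against vehicle (SE 0.088, edgeR, adjusted p = 0.687). The overlapping antisense Gm15492 fell by 0.33 on the log2 scale (SE 0.095, adjusted p = 0.0173), while Brpf1 was higher.

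The partners of the readers were examined as lists of genes, and the shares over all genes tested are given beside their counts. With oxamate these were 3.97% higher and 1.22% lower, with both compounds against oxamate 3.18% and 8.06%, and with both compounds against vehicle 7.48% and 10.6%. Among well expressed genes with the longest transcripts (median 6.21 kb), the shares were 14.4% and 1.05%, 10.6% and 11.7%, and 28.2% and 8.60%. The lists were not matched for level or length. Whether their counts exceed those of genes of like level and length was not tested. Among 30 other bromodomain genes, 6 were higher with oxamate and 0 lower, with a median log2 fold change of 0.11. Those with the smallest adjusted p were Pbrm1, the PBAF subunit with several bromodomains, at 0.53 (SE 0.077, edgeR, adjusted p = 0.000204), Cecr2, a subunit of an ISWI remodeller, at 0.50 (SE 0.078, adjusted p = 0.000378), and Baz2a, a subunit of a nucleolar remodeller, at 0.40 (SE 0.066, adjusted p = 0.000746). With both compounds against oxamate 4 of the 30 were higher and 4 lower, among them Trim66, a testis-enriched corepressor, which fell by 0.42 on the log2 scale (SE 0.077, adjusted p = 0.00101), Trim33, which rose by 0.35 (SE 0.073, adjusted p = 0.00271), and Smarca4, an ATPase of SWI/SNF, which rose by 0.27 (SE 0.065, adjusted p = 0.00836). Against vehicle 12 of the 30 were higher and 3 lower, led by Baz2a at 0.37 (SE 0.066, adjusted p = 0.000352) and Trim33 at 0.40 (SE 0.073, adjusted p = 0.000399). Brwd3, the third relative of Brwd1 and Phip, was singled out after its values were seen, and it stood at 0.33 with oxamate (SE 0.12, adjusted p = 0.114) and 0.58 with both compounds against vehicle (SE 0.12, adjusted p = 0.00109), in the direction of Brwd1 and opposite to Phip.

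Among 21 SWI/SNF subunits, the partners of Brd7 and Brd9, 4 were higher with oxamate and 0 lower, with Pbrm1 again first, then Smarcd1 at 0.51 (SE 0.11, edgeR, adjusted p = 0.00884). Both compounds raised 3 of them against oxamate and lowered 0, and against vehicle 9 were higher and 2 lower (7.48% and 10.6% over all genes), with Bcl7b at 0.57 (SE 0.084, adjusted p = 5.14e-05) and Smarcd1 at 0.73 (SE 0.11, adjusted p = 7.82e-05). Of the 17 NuA4/TIP60 genes, the complex of Brd8, 2 were higher with oxamate, Mbtd1 at 0.31 (SE 0.075, adjusted p = 0.015) and Ruvbl1 at 0.26 (adjusted p = 0.0396), 0 were called between the treated groups and 4 were higher with both compounds against vehicle. Of the 6 genes listed as partners of Brpf1, which hold Kat7 beside genes of MOZ/MORF, 0 were called with oxamate. Kat7, which is not the catalytic subunit of MOZ or MORF, rose by 0.25 with both compounds against oxamate (SE 0.077, adjusted p = 0.0368). The MOZ/MORF catalytic subunit Kat6a rose by 0.65 against vehicle (SE 0.11, adjusted p = 0.000289).

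The CUL4 ligase, which uses Phip as a receptor, had 1 of 6 core genes higher with oxamate, the receptor Dcaf1 at 0.34 (SE 0.069, edgeR, adjusted p = 0.00437). Dcaf1 fell by 0.28 with both compounds against oxamate (SE 0.070, adjusted p = 0.0111), and Cul4a was higher against vehicle at 0.29 (adjusted p = 0.00432). P-TEFb, the elongation kinase that BET proteins bring to promoters, had 2 of 7 genes higher with oxamate, its cyclin Ccnt1 at 0.42 (SE 0.074, adjusted p = 0.00129) and its inhibitor Hexim1 at 0.85 (SE 0.17, adjusted p = 0.00413). Hexim1 fell by 0.70 when octyl-L2HG was added (SE 0.17, adjusted p = 0.0114), at means of 37.6, 68.2 and 42.5 normalized counts in vehicle, oxamate and both. Against vehicle both compounds left 2 of the 7 higher, the cyclins Ccnt2 at 0.46 (adjusted p = 0.000978) and Ccnt1 at 0.29 (adjusted p = 0.00824). Of 4 acetyl-lysine readers with a YEATS domain, 1 was higher and 0 lower with oxamate and with both compounds against oxamate, and 1 was higher and 1 lower with both compounds against vehicle. The higher gene was Mllt1, which rose by 0.52 (SE 0.089, adjusted p = 0.000947) and 0.37 (SE 0.088, adjusted p = 0.00927) in the first 2 comparisons. The lower gene was Mllt3, at −0.45 against vehicle (adjusted p = 0.00715).

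Histone replacement is the process in which Brdt acts. Of 18 of its genes tested, 5 were lower with oxamate, 0 higher and 13 not called. Over the 18 the median of the log2 fold changes with oxamate was −0.046. With both compounds, 10 were lower and 0 higher against oxamate as well as against vehicle, where 8.06% and 10.6% of all genes were lower. Among well expressed genes with the shortest transcripts (median 1.09 kb), 16.4% and 24.4% were lower in these comparisons. Protamine Prm1 fell by 0.45 with oxamate (SE 0.066, edgeR, adjusted p = 0.000224) and by 0.77 with both compounds against vehicle (SE 0.067, adjusted p = 1.11e-07). Prm2 fell by 0.38 with oxamate (SE 0.063, adjusted p = 0.000746), and the transition protein Tnp2 by 0.32 (SE 0.068, adjusted p = 0.00607). Brdt itself was not called with oxamate, with an interval from −0.23 to 0.088, and a difference between Brdt and these genes was not tested. Of the 5 genes called lower with oxamate, 4 (Prm1, Prm2, Tnp1 and Tnp2) are also among the 10 markers of elongating spermatids whose summed level moved with the groups, and the fifth is the histone variant H2al2a. Of the 10 called lower with both compounds, 5 are among those markers, against oxamate as well as against vehicle.

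**Figure D4:**
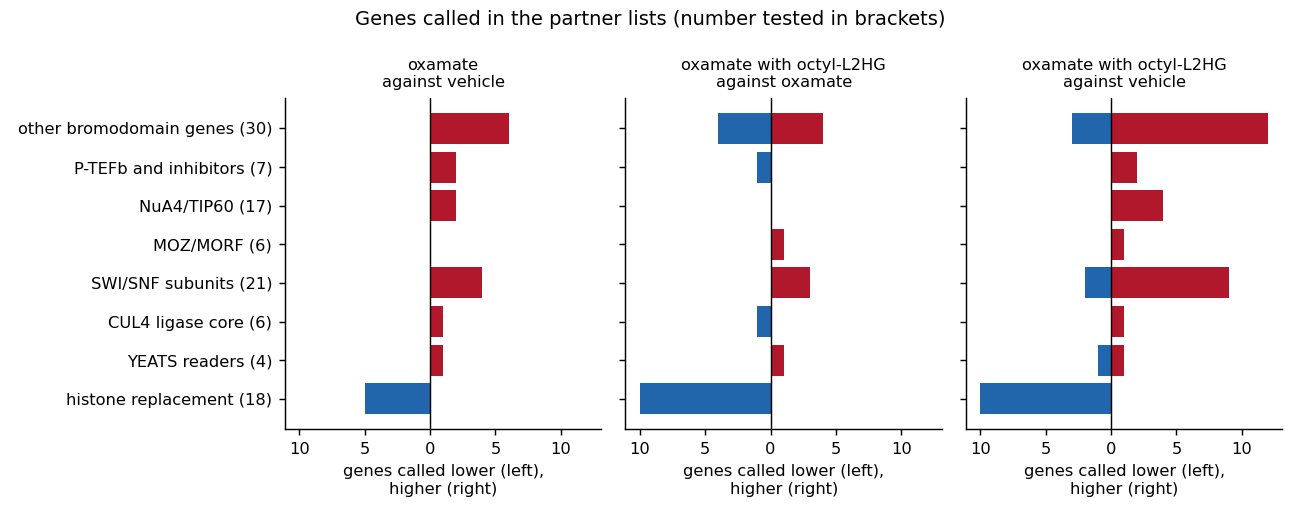
Number of genes called higher (right, red) or lower (left, blue) at an adjusted p under 0.05 in each partner list and comparison, with the number tested in brackets. Most lists have more genes higher than lower against vehicle, and the 18 histone replacement genes have 5, 10 and 10 lower and 0 higher.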

How the data were processed

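RNA of RS was sequenced as 9 libraries. The authors trimmed the reads with fastx_toolkit and cutadapt 2.10, aligned them with TopHat 2.1.1 to a mouse genome that the labels call GRCm39, and counted reads per gene with htseq-count 2.01. They deposited the counts, without normalization, and a normalized signal, obtained by dividing the counts by DESeq2 1.36.0 size factors (0.867 to 1.13). No column of values went unused. Of the genes listed, 6250 have no counts.

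Groups came from the labels. Tests of the 25128 genes with 10 or more counts used edgeR 4.0.16 under R 4.3.3 (TMM scaling, 1 robust quasi-likelihood fit of all 9 libraries, Benjamini-Hochberg over all genes), after tests on simulated data. Gene length and GC content came from GENCODE M21 on GRCm38, matched by identifier for 99.6% of genes. Levels are TMM-scaled CPM per kb of exon. The text names all 9 members and, from each list, at most 3 called genes per comparison with the smallest adjusted p, with Brwd3 added. A gene of these lists is not reported here. Members and lists were chosen with earlier results of these data known. Alternatives were DESeq2 1.42.0, other scalings and filters, only the 2 groups compared, length and GC correction with mgcv 1.9.3, and each library left out.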

Additional observations from a re-analysis of the deposited data

How the results depend on the processing

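With oxamate against vehicle, 3 members were called, and 1 (Phip) in a fit of only the 2 groups compared. Leaving out 1 library gave between 1 and 3, the lowest without the vehicle library 2. With both compounds against oxamate, 0 members were called, 2 by DESeq2, 1 with DESeq2's size factors, 2 without a filter on low counts, 1 with the filter of filterByExpr, 2 with length and GC content corrected, and 0 or 1 with 1 library left out (Brd7 without the vehicle library 1, Brd2 without the oxamate library 4). Against vehicle, both compounds gave 5, and 3 with scaling to total counts or, at the lowest, with 1 library left out (the vehicle library 1 or 3, or library 7 or 8 of both compounds), and 6 at the highest. A difference among the 3 groups was called for 4 members, for 7 without a filter on low counts and for between 2 and 6 with 1 library left out, the lowest without the vehicle library 1 and the highest without the oxamate library 4. With the longest transcript as the length, Brd2 ranked 1 and Brdt 2 in vehicle. The cause of these changes was not tested.

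Values near 0 changed sign. With oxamate and length and GC content corrected, the log2 fold changes were −0.026 for Brd2, −0.017 for Brd3 and −0.021 for Brd7. Leaving out 1 library gave between −0.13 and 0.011 for Brdt and between −0.034 and 0.096 for Brd7. With both compounds against oxamate, scaling to total counts gave −0.00098 for Brd9, −0.029 for Brwd1, −0.034 for Brd8 and −0.037 for Brpf1, and leaving out 1 library gave between −0.030 and 0.047 for Brwd1, between −0.015 and 0.062 for Brd8 and between −0.049 and 0.11 for Brpf1.

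Over all genes, 1303 were called with oxamate, 723 in a fit of only the 2 groups and 2305 without the oxamate library 4. Between the treated groups 798 genes were called higher and 2025 lower, 421 and 2516 with scaling to total counts and 1234 and 1637 by DESeq2. No paired analysis was possible because the library numbers run from 1 to 9 and are not shared between the groups. At about 100 raw counts per vehicle library, Phip has the least precise values of the 9.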
